A study of Mus musculus with 4 samples.

Results

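The genes described here are the mouse translation initiation and elongation factors, taken as every gene symbol that starts with Eif or Eef and is not a pseudogene. There were 73 such genes among the 26970 symbols in the files, 57 of them Eif and 16 Eef. The rule reads names and no measured value, but it was set with earlier results of these data known. The name covers more than the factors themselves, because the kinases of eIF2 and eEF2, the eIF4E binding proteins and the methyltransferases of the elongation factors carry the same prefixes. The symbol Eif2c5 is annotated as a long noncoding RNA and is a member by its name only.

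The series concerns the antisense transcript Evx1as and the homeobox gene Evx1 in mouse embryonic stem cells, which leave the undifferentiated state when deprived of the cytokine LIF. All 4 libraries used were WT cells of the embryonic stem cell line CJ9 (strain 129S4/SvJae), titled as carrying Cas9 only, in serum-containing medium without LIF. By title, time label and harvest text, 2 libraries were taken at day 6 and 2 at day 4. The libraries share 1 cell line, and the cells in which the locus was deleted are not analysed here. The culture text departs from the titles for 3 of the 4: it states 4 days off LIF for the library titled day 6 replicate 1, and 2 and 6 days for those titled day 4 replicates 1 and 2. No label says whether the libraries of a day were separate cultures. The spread behind every p-value below is that between these libraries and may be technical. Levels are given in FPKM, a fragment count scaled to transcript length and library size, summed over the transcripts of a gene. The files hold no counts, so the depth of a library is not known beyond its coverage per FPKM.

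Translation starts when the small ribosomal subunit, loaded with the initiator tRNA by eIF2 and bound by eIF1, eIF1A, eIF3 and eIF5, is brought to the capped end of an mRNA by eIF4F, the assembly of the cap-binding protein eIF4E, the scaffold eIF4G and the helicase eIF4A. Elongation then runs on eEF1A, which delivers aminoacyl-tRNA, on the eEF1B complex that recharges it with GTP, and on eEF2, which moves the ribosome along. The pathway is held in check at eIF2, by kinases that phosphorylate it under stress, and at eIF4E, by binding proteins that mTOR inactivates; in embryonic stem cells overall protein synthesis is known to be low and to increase on differentiation.

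The day 6 libraries were alike across all tested genes (Pearson r = 0.981), whereas the day 4 libraries were not (r = 0.671, a correlation across genes, which are not independent replicates). Day 4 replicate 2 had 9445 genes at 1 FPKM or more, against 11199 to 11832 in the other libraries, and its 10 most abundant transcripts held 19.8% of all FPKM, against 10.4 to 11.8%. Coverage per FPKM was 1.82 and 1.59 in the day 6 libraries and 0.698 and 0.929 in day 4 replicates 1 and 2, so low values are less precise at day 4. The summed level of 10 pluripotency markers was 325 and 330.3 FPKM at day 6 against 977 and 982 FPKM at day 4, with all 10 at 1 FPKM or more in 3 libraries and 9 in day 4 replicate 2. Single markers did not all follow this sum. Pou5f1 had 54.9 and 41.99 FPKM at day 6, against 368 and 376 FPKM at day 4, but day 4 replicate 2 lay below both day 6 libraries for Dppa4, Dppa5a, Tdgf1, Zfp42 and Esrrb. Utf1 had 49.96 and 50.5 FPKM at day 6, against 73.1 and 392 FPKM in day 4 replicates 1 and 2, and Esrrb was higher at day 6, with 5.11 and 4.35 FPKM, against 2.9996 and 1.13 FPKM at day 4. Markers of other cell types differed between the days as well. The 6 primitive erythroid markers summed to 186 and 729 FPKM at day 6, against 0 and 0.144 FPKM at day 4. At day 4, 6 and 5 of the 6 were at 0. The 7 fibroblast markers summed to 142 and 271 FPKM at day 6, against 9.84 and 8.39 FPKM at day 4. Neuronal markers summed to 14.3 to 92.9 FPKM and striated muscle markers to 3.23 to 12.5 FPKM in all 4 libraries, with Snap25 and Myog at 0 throughout. In such bulk samples fewer cells of a type and less RNA per cell cannot be told apart. The part of the cell mixture in the values of translation factors was not tested.

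Translation factor mRNAs were among the abundant messages of these cells. They made up 2.31 and 2.41% of all FPKM in the day 6 libraries, against 2.39 and 1.72% in day 4 replicates 1 and 2. The Eef genes took 1.203 and 1.37% at day 6, against 0.942 and 0.532% at day 4, and the Eif genes 1.10 and 1.04% at day 6, against 1.45 and 1.19% at day 4. A single gene, Eef1a1, held 0.734 and 0.837% at day 6, against 0.506 and 0.0101% at day 4. Without it the members' share was 1.57% in both day 6 libraries, against 1.88 and 1.71% at day 4, so both day 6 libraries lay below both day 4 libraries. Of the 73 genes, 66 and 65 were at 1 FPKM or more at day 6, against 66 and 54 at day 4.

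Of the 73 genes, 65 had a mean of at least 1 FPKM over the 4 libraries and were tested on log2(FPKM + 1) within a limma fit over all 11708 genes that passed this filter. None of the 65 had an adjusted p under 0.05 in the comparison of day 6 with day 4, and none of the 11708 genes did (0%). An unadjusted p under 0.05 was given to 6 of the 65 (9.23%), against 1790 of all genes (15.3%). Both day 6 libraries lay above both day 4 libraries for 22 of the 65 (33.8%), a placement found for 41.6% of all genes tested. Both lay below both day 4 libraries for 9 of the 65 (13.8%), found for 11.5% of all genes tested. Neither share stood far from that of all genes. The median log2 difference, day 6 minus day 4, was 0.66 over the 65 genes and 0.51 over all genes.

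These numbers rested on which day 4 library was used. Without day 4 replicate 2 the median log2 difference was 0.04 over the translation factors and 0.37 over all genes. Without day 4 replicate 1 it was 1.03 over the translation factors and 0.66 over all genes. When day 4 replicate 2 was left out, limma called 9 of the 65 higher at day 6 (13.8%, against 36.2% of all genes) and 16 lower (24.6%, against 15.7%). The day 6 libraries then lay above the remaining day 4 library for 30 (46.2%, against 59.9% of all genes) and below it for 28 (43.1%, against 32%). When day 4 replicate 1 was left out, it called 40 higher (61.5%, against 50% of all genes) and 8 lower (12.3%, against 17%), and 43 lay above day 4 replicate 2 (66.2%, against 65%) and 18 below it (27.7%, against 28.7%). Such a fit has 1 day 4 library and takes its variation from the day 6 libraries. Both day 6 libraries lay between the day 4 libraries, above replicate 2 and below replicate 1, for 18 of the 65 (27.7%, against 18.8% of all genes), so that the sign of their difference depends on the day 4 library taken. The reverse placement, above replicate 1 and below replicate 2, was found for 7 (10.8%, against 14.6%).

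**Figure D1:**
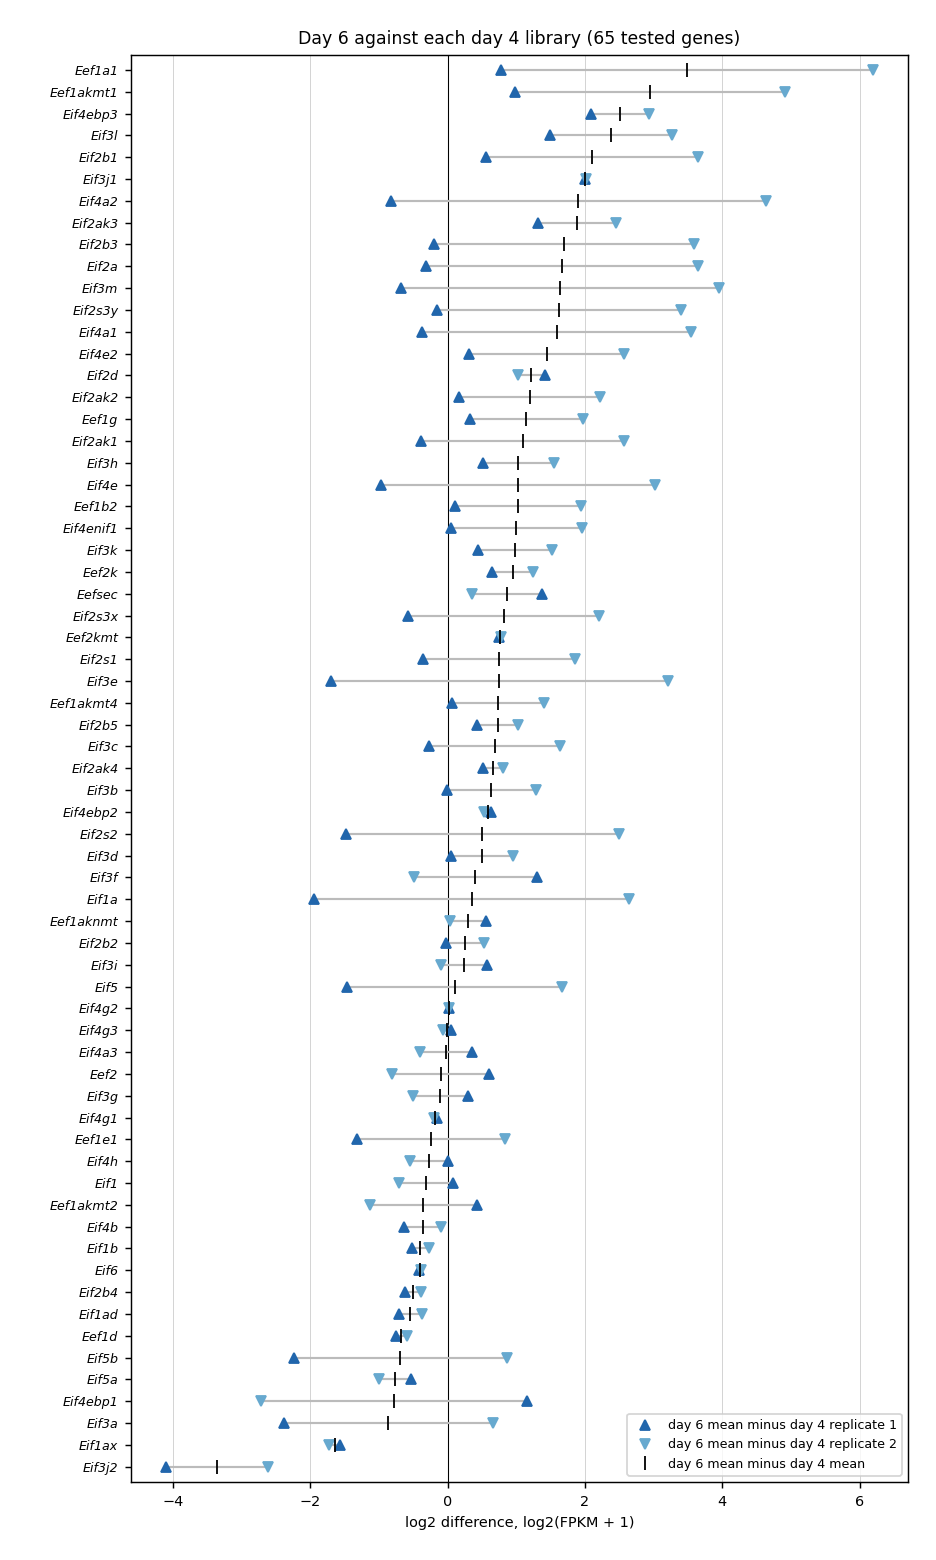
Log2 difference on the log2(FPKM + 1) scale of the day 6 mean minus day 4 replicate 1 (dark triangles), minus day 4 replicate 2 (light triangles) and minus the day 4 mean (black ticks), for the 65 tested genes in the order of the last. The grey bars join the day 4 libraries; those of Eif1ax, Eif5a, Eif2d and Eif4ebp2 are short and stay on 1 side of 0, whereas those of Eif4a2, Eif3e and Eif4ebp1 cross it.

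The gap between the day 4 libraries was wide for most translation factors. It exceeded 1 log2 unit for 38 of the 65 (58.5%, against 52.9% of all genes tested), with 33 lower and 5 higher in day 4 replicate 2, whereas between the day 6 libraries it did so for 2, Eif3j1 and Eif3j2. The median size of the gap was 1.34 at day 4 and 0.11 at day 6 over the members, and 1.07 at day 4 and 0.19 at day 6 over all genes. The day 4 gap moved with the GC content of the transcript (Pearson r = 0.55 and Spearman rho = 0.56 across the 65 genes, r = 0.60 and rho = 0.64 across the 11366 genes with a known GC content; the genes share the same 2 libraries). The 9 members under 42% GC had a median of -3.56 log2 units in day 4 replicate 2 minus replicate 1. The 15 members at 54% GC or more had a median of 0.05. Over all genes in the same GC ranges the medians were higher, at -1.77 and 0.86. Some members went against this pattern. Eif1ax at 39.7% GC and Eif4g2 at 43.2% GC differed by 0.16 and -0.01 between the day 4 libraries, and Eif4ebp1 at 48.2% GC was 3.87 log2 units higher in replicate 2. The day 6 gap did not follow GC among the members (r = 0.01). What separates the day 4 libraries, and its part in each difference below, was not tested.

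**Figure D2:**
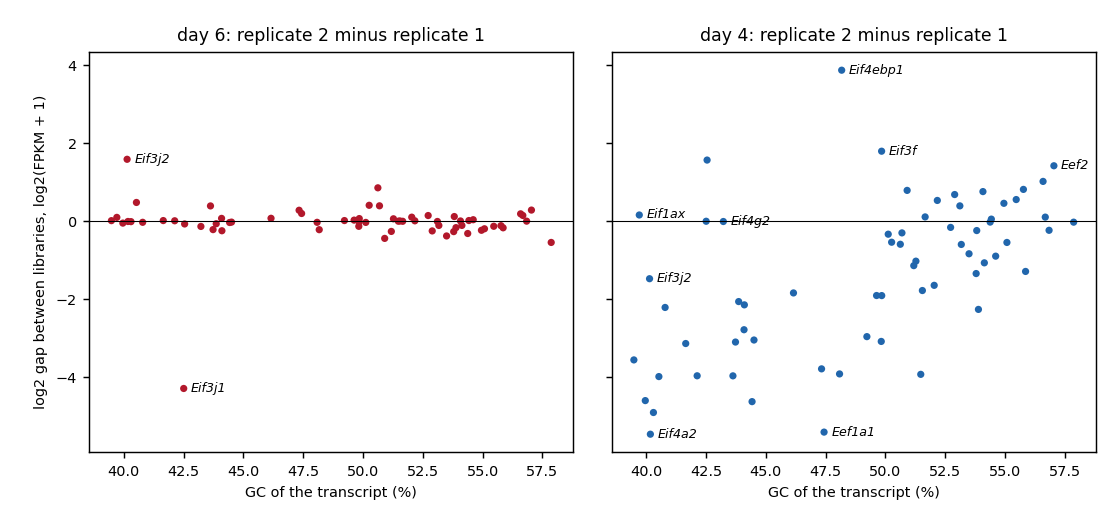
Gap between the libraries of a day, replicate 2 minus replicate 1 on the log2(FPKM + 1) scale, against the GC content of the transcript in percent, for the 65 tested genes, at day 6 (left) and day 4 (right). At day 6 the points lie close to 0 apart from Eif3j1 and Eif3j2; at day 4 most genes of low GC content lie far below 0 and genes above 54% GC lie around it.

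Because of this gap, 3 other scalings of the libraries were set beside the deposited values. With libraries scaled to the same median the median log2 difference of all genes moved to -0.12. The members then split into 10 higher and 18 lower without overlap (20.2 and 26.4% of all genes), where the deposited values gave 22 and 9. Quantile normalization gave 14 higher and 10 lower (23 and 24.9% of all genes), and a correction for GC content gave 11 higher and 19 lower (26.2 and 29% of all genes). The placement held as deposited and in all 3 scalings for 7 genes on the higher side (10.8% of members, 16.5% of all genes), namely Eef1a1, Eef1akmt1, Eif2ak3, Eif2b1, Eif2d, Eif3l and Eif4ebp3. On the lower side it held for all 9 (13.8% of members, 11% of all genes), namely Eef1d, Eif1ad, Eif1ax, Eif1b, Eif2b4, Eif3j2, Eif4g1, Eif5a and Eif6.

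**Figure D3:**
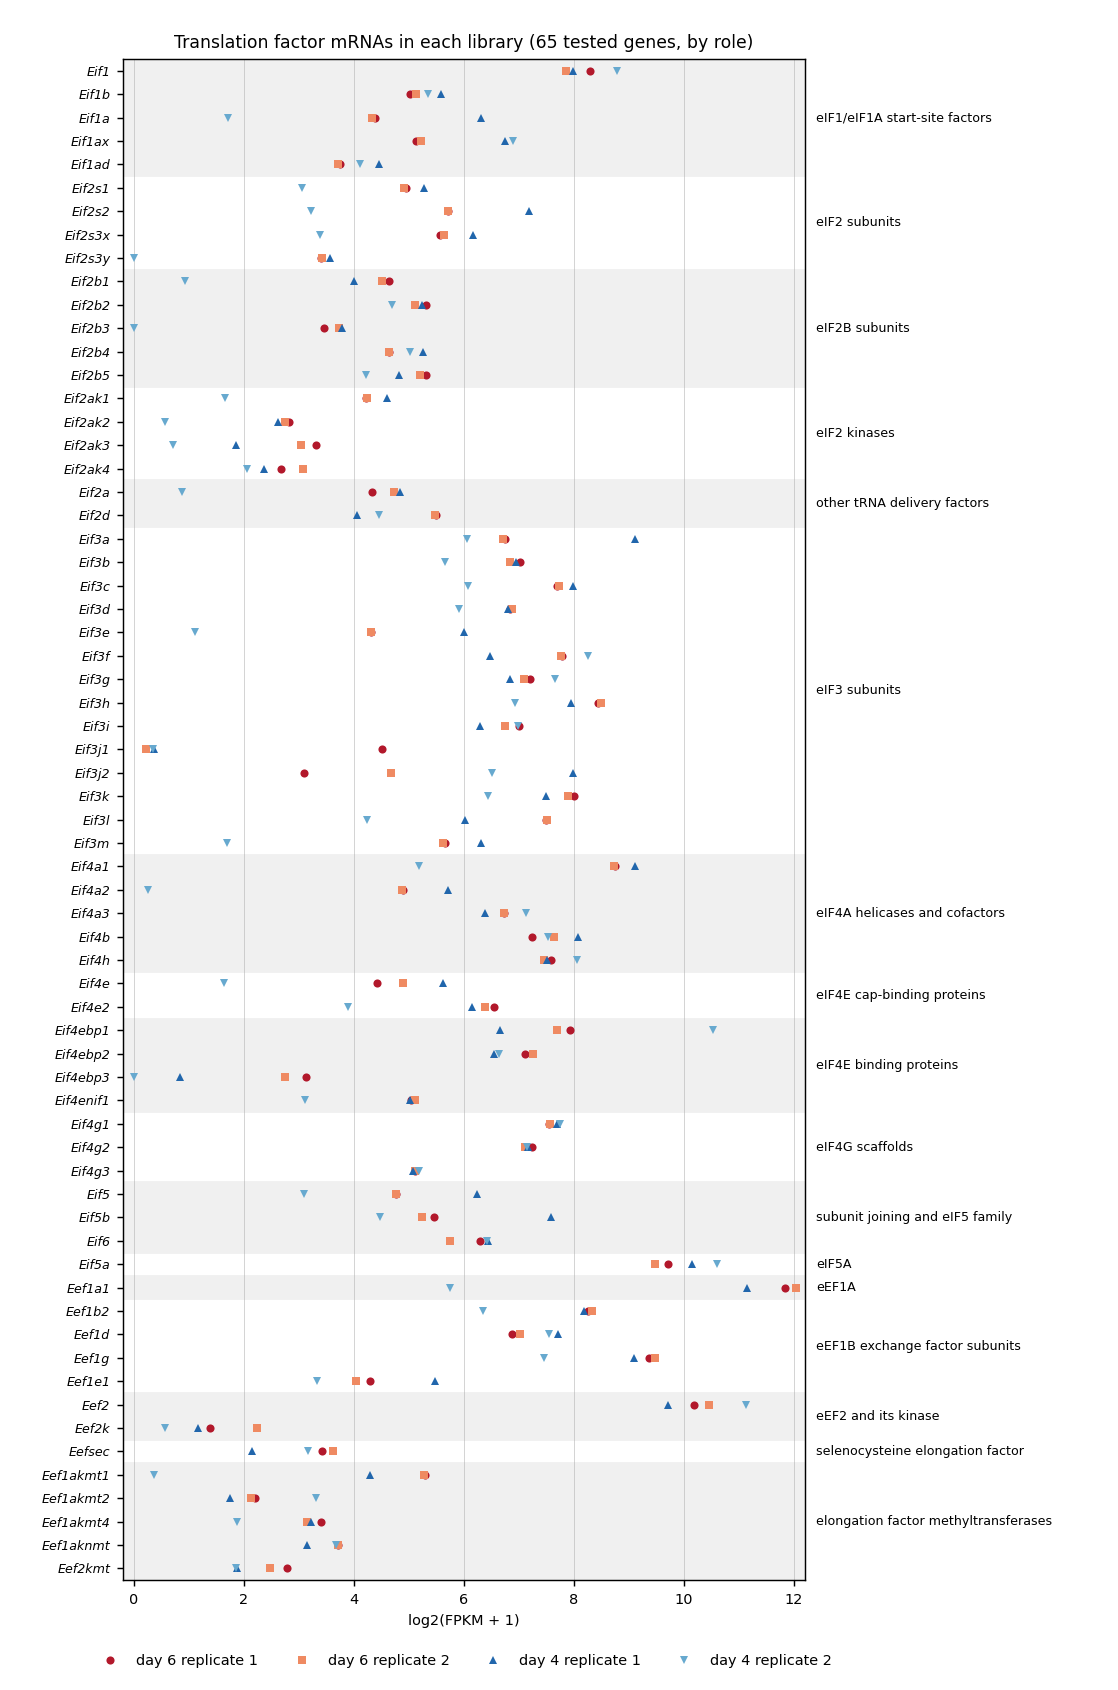
Level of each of the 65 tested genes in each library as log2(FPKM + 1), grouped by role, with day 6 as red circles and orange squares and day 4 as dark and light blue triangles. The day 6 symbols nearly coincide for most genes, and the light triangles of day 4 replicate 2 often stand apart to the left, as for the eIF2 subunits.

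Among the factors that hold the scanning ribosome and choose the start codon, no gene was higher at day 6 without overlap (41.6% of all genes) and 3 of 5 were lower (11.5%), with that placement kept in the 3 scalings (11% of all genes). Eif1ax, the X-linked gene of eIF1A (NM_025437, chrX:159372194-159385699, mm10), had 34.0 and 36.4 FPKM at day 6, against 106 and 118 FPKM at day 4. The days were far apart and the libraries of each day close together, a pattern few members showed. Its log2 difference was -1.64 with a standard error of 0.43 (limma, adjusted p = 0.274), and -1.56 without day 4 replicate 2 (limma, adjusted p = 0.00283). The autosomal copy Eif1a, whose coding sequence is identical to that of Eif1ax at 370 of 432 bases (85.6%), had 19.8 and 19.1 FPKM at day 6, against 78.0 and 2.26 FPKM in day 4 replicates 1 and 2. For Eif1a the sign of the difference was therefore set by the day 4 library. Eif1, the start-codon gatekeeper, had 313 and 230.0 FPKM at day 6, against 253 and 438 FPKM at day 4, with overlap. Its close relative Eif1b was far less abundant, at 31.2 and 34.0 FPKM at day 6, against 47.0 and 39.6 FPKM at day 4. Eif1ad, named for its eIF1A domain, had 12.5 and 12.1 FPKM at day 6, against 20.8 and 16.3 FPKM at day 4. For both of these the days did not overlap, with log2 differences of -0.40 and -0.55 that did not pass (limma, adjusted p = 0.674 and 0.559).

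All 4 genes of the eIF2 complex, which carries the initiator tRNA, had both day 6 libraries between the day 4 libraries. This placement, above replicate 2 and below replicate 1, was found for 27.7% of the 65 tested genes and 18.8% of all genes. The 4 transcripts had 39.5 to 44.1% GC. Of the members under 42% GC, 8 of 9 were lower in day 4 replicate 2, as were 10 of 11 from 42 to 46%. Eif2s1, the subunit that the eIF2 kinases phosphorylate, had 29.6 and 29.0 FPKM at day 6, against 37.7 and 7.34 FPKM in day 4 replicates 1 and 2. Eif2s2 had 51.3 and 51.6 FPKM at day 6, against 145 and 8.33 FPKM at day 4. The GTP-binding subunit is made from an X-linked and a Y-linked gene. Eif2s3x had 46.2 and 48.6 FPKM at day 6, against 71.1 and 9.46 FPKM at day 4, and Eif2s3y had 9.54 and 9.63 FPKM at day 6, against 10.8 and 0 FPKM at day 4. The X-linked copy was above the Y-linked one in all 4 libraries, and day 4 replicate 2 had the lowest value of both. Without day 4 replicate 2, Eif2s2 was called lower at day 6 (log2 difference -1.47, limma adjusted p = 0.00302) and so was Eif2s3x (-0.57, limma adjusted p = 0.0378). Both were called higher instead without day 4 replicate 1, Eif2s2 by 2.49 (limma, adjusted p = 0.000417) and Eif2s3x by 2.21 (limma, adjusted p = 0.000571).

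The coding sequences of Eif2s3x and Eif2s3y are identical at 1222 of 1416 bases (86.3%). Words of 50 bases were taken every 10 bases along each transcript. Of the 179 words of Eif2s3y, 0 occur in another annotated gene, so none of those tested is shared with Eif2s3x. Of the 360 words of Eif2s3x, 36.1% occur in 2 other annotated genes, with Gm2223 sharing the most. Over those words reads of Eif2s3x and of the genes that share them cannot be told apart. A stretch of 60 bases at coding positions 19 to 78, read from GENCODE M21 transcripts, shows how the differences are scattered; capitals in the Y-linked copy mark the 8 bases that differ from the X-linked one.
Eif2s3y: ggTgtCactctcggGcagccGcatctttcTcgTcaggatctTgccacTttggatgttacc
Eif2s3x: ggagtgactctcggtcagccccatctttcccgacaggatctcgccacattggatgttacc

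The eIF2B complex reloads eIF2 with GTP. At day 6, 2 of its 5 subunit genes lay above both day 4 libraries and 1 below both, against 41.6 and 11.5% of all genes. Eif2b1, the alpha subunit (chr5:124570213-124579057), had 23.8 and 21.7 FPKM at day 6, against 15.0 and 0.891 FPKM at day 4, and Eif2b5, the catalytic subunit, had 38.5 and 35.5 FPKM at day 6, against 27.1 and 17.6 FPKM at day 4. Eif2b4 went the other way, with 23.8 FPKM in each day 6 library, against 37.3 and 31.5 FPKM at day 4. Eif2b2 overlapped at 38.8 and 33.7 FPKM at day 6, against 36.7 and 24.8 FPKM at day 4, and Eif2b3 had 9.98 and 12.3 FPKM at day 6, against 12.8 and 0 FPKM at day 4. The log2 differences of the 5 ran between -0.51 and 2.11, and none passed. Without day 4 replicate 2 the differences were 0.56 for Eif2b1, -0.02 for Eif2b2, -0.19 for Eif2b3, -0.63 for Eif2b4 and 0.43 for Eif2b5. Without day 4 replicate 1 they were 3.65 for Eif2b1, 0.53 for Eif2b2, 3.60 for Eif2b3, -0.39 for Eif2b4 and 1.03 for Eif2b5.

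The 4 kinases that phosphorylate eIF2 respond to different stresses, and 3 of them were higher at day 6 without overlap, against 41.6% of all genes. Eif2ak3, known as PERK, the kinase of endoplasmic reticulum stress (NM_010121, chr6:70844526-70905240), had 8.86 and 7.21 FPKM at day 6, against 2.61 and 0.638 FPKM at day 4. Its log2 difference was 1.89 with a standard error of 0.56 (limma, adjusted p = 0.288), and 1.32 without day 4 replicate 2 (limma, adjusted p = 0.00853). Eif2ak4, known as GCN2, the amino acid sensor, had 5.40 and 7.39 FPKM at day 6, against 4.14 and 3.17 FPKM at day 4; its sign turned under quantile normalization and under the GC correction, where its differences were -0.0016 and -0.082. Eif2ak2, known as PKR, the kinase activated by double-stranded RNA, had 6.06 and 5.74 FPKM at day 6, against 5.16 and 0.475 FPKM at day 4. The day 6 libraries of Eif2ak2 were within a narrow margin of day 4 replicate 1, and the gap lay in replicate 2. Eif2ak1, the haem-regulated kinase, had 17.6 and 17.8 FPKM at day 6, against 23.4 and 2.13 FPKM at day 4, and was the most abundant of the 4 in every library but day 4 replicate 2, where Eif2ak4 was above it. Only Eif2ak3 kept its placement in the 3 scalings.

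A pair of factors can bring tRNA to the ribosome outside the eIF2 cycle. Eif2d (chr1:131153206-131173471) had 43.8 and 43.5 FPKM at day 6, against 15.7 and 20.9 FPKM at day 4. The days stood apart and the libraries within a day were close, with a log2 difference of 1.22 and a standard error of 0.44 (limma, adjusted p = 0.318), and of 1.42 without day 4 replicate 2 (limma, adjusted p = 0.00331). Eif2a, a protein distinct from the eIF2 alpha subunit in spite of its symbol, had 19.1 and 25.4 FPKM at day 6, against 27.7 and 0.833 FPKM at day 4.

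The eIF3 complex, the largest of the initiation factors, bridges the small subunit and eIF4G. Of its 14 genes, 4 were higher at day 6 without overlap, 1, Eif3j2, was lower and 9 overlapped, against 41.6% higher and 11.5% lower over all genes. Eif3l (NM_145139, chr15:79075222-79094400) had 179.9 and 180.4 FPKM at day 6, against 63.6 and 17.8 FPKM at day 4. The difference was 2.38 on the log2 scale with a standard error of 0.74 (limma, adjusted p = 0.294), and 1.49 without day 4 replicate 2 (limma, adjusted p = 0.00303). Eif3h had 346 and 361 FPKM at day 6, against 246 and 120.3 FPKM at day 4, Eif3k had 255 and 236 FPKM at day 6, against 179.8 and 85.2 FPKM at day 4, and Eif3d, a subunit that can itself bind the cap, had 114 and 117 FPKM at day 6, against 111 and 58.9 FPKM at day 4. Of these 4, Eif3l alone kept its place in the 3 scalings.

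Eif3a, the largest subunit and one on which the complex is assembled, had 106 and 104 FPKM at day 6, against 552 and 65.9 FPKM in day 4 replicates 1 and 2. Its log2 difference was -0.86 (limma, adjusted p = 0.727), but -2.39 without day 4 replicate 2 (limma, adjusted p = 0.00204) and 0.66 without day 4 replicate 1. Eif3e, with 18.9 and 18.7 FPKM at day 6, against 63.4 and 1.15 FPKM at day 4, and Eif3m, with 49.5 and 48.2 FPKM at day 6, against 78.8 and 2.23 FPKM at day 4, showed the same placement between the day 4 libraries. Eif3f was placed the other way, at 218 and 215 FPKM at day 6, against 87.5 and 305 FPKM at day 4, as was Eif3g, at 147 and 135 FPKM at day 6, against 114 and 201 FPKM at day 4. Eif3b and Eif3c overlapped at 114 to 210.3 FPKM at day 6, against 49.1 to 251 FPKM at day 4, and Eif3i at 127 and 107 FPKM at day 6, against 77.6 and 125 FPKM at day 4. In the day 6 libraries the subunits other than the eIF3j genes spanned 18.7 to 361 FPKM.

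The eIF3j genes need a separate account. The transcript named Eif3j2 (NM_001256055) lies in the deposited files at chr2:122028582-122053631, on top of Eif3j1 (NM_144545, chr2:122028579-122053632), whereas RefSeq places the gene Eif3j2 on chromosome 18; it was the only one of the 73 genes whose files and annotation differ in chromosome. All 783 coding bases of Eif3j1 are found in the 789 of Eif3j2, and 91.4% of the 50-base words of the Eif3j2 transcript occur in other genes. The row carries a low-data status in every library. Eif3j2 had 7.56 and 24.7 FPKM at day 6, against 252 and 90.1 FPKM at day 4, and Eif3j1 had 21.8 and 0.164 FPKM at day 6, against 0.281 and 0.278 FPKM at day 4. How the files share the signal between them changed from library to library, with Eif3j1 holding 74.2 and 0.659% of the sum at day 6. Their sum was steadier, at 29.3 and 24.8 FPKM at day 6, against 253 and 90.4 FPKM at day 4, a log2 difference of -2.44 (exact two-sided permutation test, p = 0.333, the smallest that 2 libraries against 2 can give). The sum, rather than either symbol, is the quantity these files support, and it was lower in both day 6 libraries.

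The eIF4F complex is built on the cap. Of the eIF4A helicases and their cofactors, all 5 tested genes overlapped between the days. Placement without overlap was found for 41.6% (higher) and 11.5% (lower) of all genes. Eif4a1, the main helicase, had 430.1 and 421 FPKM at day 6, against 549.9 and 35.5 FPKM at day 4. Eif4a2 had 28.7 and 28.5 FPKM at day 6, against 51.5 and 0.191 FPKM at day 4, the widest day 4 gap of any tested member (-5.46 log2 units). Eif4a3, which serves the exon junction complex, had 105 and 106 FPKM at day 6, against 82.0 and 139 FPKM at day 4. The helicase cofactors Eif4b, at 149 and 198 FPKM at day 6 against 268 and 184 FPKM at day 4, and Eif4h, at 191 and 174 FPKM at day 6 against 181 and 266 FPKM at day 4, had log2 differences of -0.36 and -0.27. A further symbol, Eif4a3l1, had 0.284 and 0 FPKM at day 6, against 1.10 and 0 FPKM at day 4.

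The paralogues Eif4a1 and Eif4a2 are identical at 840 of 1083 aligned coding bases (77.6%), and their transcripts have 40.2% GC (Eif4a2) and 48.1% GC (Eif4a1). Their day 4 gaps, replicate 2 minus replicate 1, were -5.46 (Eif4a2) and -3.92 (Eif4a1) log2 units. The medians of the members under 42% GC and from 46 to 50% GC were -3.56 and -2.44. The part of GC content in the gaps of this pair was not tested. The 60-base stretches below (GENCODE M21, coding positions 76 to 135 of Eif4a2 and 73 to 132 of Eif4a1) have 31.7% and 45% GC; capitals in Eif4a2 mark the 13 bases that differ from Eif4a1.
Eif4a2: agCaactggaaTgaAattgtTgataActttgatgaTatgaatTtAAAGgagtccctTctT
Eif4a1: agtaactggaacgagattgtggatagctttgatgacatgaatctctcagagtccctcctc

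Among the cap-binding proteins, Eif4e, the canonical one, had 20.4 and 28.8 FPKM at day 6, against 48.2 and 2.11 FPKM at day 4. Eif4e2, whose protein binds the cap without recruiting eIF4G in the usual way and is known as a repressor, was more abundant, at 92.6 and 82.3 FPKM at day 6, against 70.2 and 13.8 FPKM at day 4. It was above Eif4e in all 4 libraries. Eif4e3 had 0.641 and 1.22 FPKM at day 6, against 1.49 and 0 FPKM at day 4, and Eif4e1b, an oocyte form, was listed at 0 in every library for each of its 5 transcripts. The oocyte markers Zp2, Bmp15 and Oosp1 were also at 0 in all 4.

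The proteins that sequester eIF4E differed from one another. Eif4ebp3 (NM_201256) had 7.69 and 5.68 FPKM at day 6, against 0.786 and 0 FPKM at day 4. It had the smallest unadjusted p of the members, with a log2 difference of 2.51 and a standard error of 0.48 (limma, adjusted p = 0.266), and 2.09 without day 4 replicate 2 (limma, adjusted p = 0.00369). Its transcript shares 65.7% of its 50-base words with 1 other annotated gene, so over those words reads of the 2 genes cannot be told apart. Eif4ebp2, the form abundant in brain, had 136 and 151 FPKM at day 6, against 92.0 and 98.9 FPKM at day 4; the libraries of each day were close and the days did not overlap, but with libraries scaled to the same median the difference was -0.045, where the deposited values gave 0.58. Eif4ebp1, the classical mTOR target (chr8:27260326-27275656), had 241 and 207 FPKM at day 6, against 100.1 and 1476 FPKM in day 4 replicates 1 and 2. Eif4ebp1 was above every other eIF4E binding protein in every library. Its log2 difference was -0.78 with all libraries but 1.15 without day 4 replicate 2. Eif4enif1, the transporter that takes eIF4E into the nucleus, had 31.8 and 33.3 FPKM at day 6, against 31.5 and 7.65 FPKM at day 4.

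The levels of the eIF4G scaffolds as deposited lay close together in the 4 libraries. Eif4g1 had 185 and 187 FPKM at day 6, against 207 and 214 FPKM at day 4, a difference of -0.18 log2 units without overlap (limma, adjusted p = 0.864). Eif4g2, also called DAP5, which works without eIF4E, had 150.3 and 137 FPKM at day 6, against 142 and 141 FPKM at day 4. Eif4g3 had 33.7 and 33.6 FPKM at day 6, against 32.7 and 35.3 FPKM at day 4. Day 4 replicate 2 did not stand apart for any of the 3. The size of these differences depended on the scaling: with equal medians they were -0.81 for Eif4g1, -0.61 for Eif4g2 and -0.64 for Eif4g3, all without overlap, and after the GC correction that of Eif4g1 was -0.76. With the highest row only, the difference was 1.59 for Eif4g2, with overlap, and -1.03 for Eif4g3. Nearly all of the value of Eif4g1 came from a transcript (NM_001005331) that was given this symbol because its locus is that of the named transcript NM_145941; naming by transcript ID only, the difference of Eif4g1 was -1.31.

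The last initiation steps join the subunits. Eif5, which triggers GTP hydrolysis on eIF2, had 26.1 and 26.3 FPKM at day 6, against 74.1 and 7.53 FPKM at day 4, and Eif5b, the GTPase of subunit joining, had 42.7 and 36.5 FPKM at day 6, against 190.4 and 21.3 FPKM at day 4. Without day 4 replicate 2 they were called lower at day 6, at -1.47 (limma, adjusted p = 0.00310) and -2.24 (limma, adjusted p = 0.00212). Both were called higher without day 4 replicate 1, by 1.67 (limma, adjusted p = 0.00132) for Eif5 and 0.86 (limma, adjusted p = 0.0130) for Eif5b. Eif6, which keeps the large subunit from joining early, had 77.4 and 52.7 FPKM at day 6, against 85.8 and 84.2 FPKM at day 4. Eif5a, which carries the hypusine residue and helps the ribosome through difficult peptide bonds, was the third most abundant member in both day 6 libraries, with 840.0 and 714 FPKM at day 6, against 1125 and 1544 FPKM at day 4. Its days did not overlap, and its log2 difference was -0.77 with a standard error of 0.54 (limma, adjusted p = 0.514). Its paralogue Eif5a2 stayed near 1 FPKM, at 1.23 and 0.975 FPKM at day 6, against 1.01 and 0.573 FPKM at day 4.

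Among the genes named Eef, 8 of 13 tested were higher at day 6 without overlap and 1 was lower, against 41.6 and 11.5% of all genes. Of the 8, Eef1a1 and Eef1akmt1 kept this placement in the 3 scalings, as 16.5% of all genes did. Eef1a1 (NM_010106, chr9:78478453-78481724) was the most abundant member in the day 6 libraries, with 3658 and 4189.6 FPKM, against 2278 and 52.6 FPKM in day 4 replicates 1 and 2. Its log2 difference of 3.49 was the largest of the members on the higher side. With a pseudocount of 0.1 it was 3.50, below those of Eif4ebp3 (4.49) and Eef1akmt1 (3.80). The standard error for Eef1a1 was 1.90 (limma, adjusted p = 0.435), and the difference shrank to 0.78 without day 4 replicate 2. Much of the Eef1a1 transcript is not unique: 58.9% of its 50-base words occur in 18 other annotated genes. Eef1a2, the form of adult neurons and striated muscle, was near 0, with 0.107 and 0 FPKM at day 6 and 0 FPKM in both day 4 libraries.

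The exchange factor eEF1B has several subunits. Eef1g had 659.9 and 708 FPKM at day 6, against 545 and 174 FPKM at day 4, and Eef1b2 had 304 and 319.7 FPKM at day 6, against 289 and 80.0 FPKM at day 4. For both, day 6 was only slightly above day 4 replicate 1, and the log2 differences of 1.15 and 1.03 became 0.32 and 0.11 without replicate 2. Eef1d, the delta subunit, went the other way, with 116 and 128 FPKM at day 6, against 207 and 185 FPKM at day 4, a log2 difference of -0.68 (limma, adjusted p = 0.4998), and -0.76 without day 4 replicate 2 (limma, adjusted p = 0.0191). With the highest row only, the difference of Eef1d was 2.77, with overlap. Eef1e1, a small relative that also sits in the multisynthetase complex, had 18.5 and 15.4 FPKM at day 6, against 43.4 and 9.03 FPKM at day 4.

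Eef2, the translocase, had 1156 and 1407 FPKM at day 6, against 836 and 2238 FPKM at day 4, and overlapped. It was below Eef1a1 in both day 6 libraries, below Eef1a1 and Eif5a in day 4 replicate 1, and above both in day 4 replicate 2. Its inhibitory kinase Eef2k was low, at 1.61 and 3.72 FPKM at day 6, against 1.23 and 0.479 FPKM at day 4, a difference of 0.95 log2 units without overlap (limma, adjusted p = 0.424). Eefsec, which brings selenocysteine tRNA to the ribosome, had 9.74 and 11.2 FPKM at day 6, against 3.41 and 7.93 FPKM at day 4, and was called higher without day 4 replicate 2 (1.38, limma adjusted p = 0.00593). Of the methyltransferases that modify eEF1A and eEF2, 3 of 5 tested genes were higher without overlap, against 41.6% of all genes. Eef1akmt1 had 37.9 FPKM in each day 6 library, against 18.7 and 0.294 FPKM at day 4, a log2 difference of 2.95 with a standard error of 1.39 (limma, adjusted p = 0.391), and 0.98 without day 4 replicate 2 (limma, adjusted p = 0.00800). Eef2kmt had 5.89 and 4.53 FPKM at day 6, against 2.66 and 2.60 FPKM at day 4. Eef1aknmt had 12.1 FPKM in each day 6 library, against 7.87 and 11.8 FPKM at day 4. Eef1akmt2 and Eef1akmt4 overlapped, and Eef1akmt3 and the readthrough symbol Eef1akmt4-ece2 stayed under 0.3 FPKM throughout.

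Many mRNAs of the translation machinery begin with a run of pyrimidines through which mTOR controls their translation, so the annotated starts were read from RefSeq sequences of GRCm38.p6, the assembly that mm10 stands for. A C followed by at least 5 bases that are each C or T was searched on the transcribed strand only, within 5 bases before and 10 bases after the start. Of the 57 members with a start in the table, 9 had such a run (15.8%), against 11.01% of 27025 genes. They were Eef1a1, Eif2ak4, Eif2b5, Eif2c5, Eif2s3x, Eif2s3y, Eif3f, Eif3l and Eif4g1. Of these, 4 were higher at day 6 without overlap and 1 was lower, against 41.6 and 11.5% of all genes tested. A further 3 overlapped, and Eif2c5 was at 0. The windows below run from 10 bases before to 20 bases after the start, for members on both sides of the day 4 gap. Capitals mark the first run found, up to the end of the window searched. The runs of Eif3f, Eif2s3x and Eif2s3y continue past that end, and Eif3l holds a further run in lower case. The last 2 hold no run in the window searched. The Eef2 sequence ends in pyrimidines that lie outside that window, so they were not counted.
Eef1a1, chr9:78481705-78481734, minus strand: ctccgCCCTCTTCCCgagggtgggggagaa
Eif3l, chr15:79075213-79075242, plus strand: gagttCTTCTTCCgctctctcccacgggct
Eif3f, chr7:108934405-108934434, plus strand: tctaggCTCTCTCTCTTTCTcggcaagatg
Eif2s3x, chrX:94212632-94212661, minus strand: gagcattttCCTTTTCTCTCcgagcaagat
Eif2s3y, chrY:1010585-1010614, plus strand: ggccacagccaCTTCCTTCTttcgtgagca
Eef2, chr10:81176621-81176650, plus strand: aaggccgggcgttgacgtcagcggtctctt
Eif1ax, chrX:159372168-159372197, plus strand: ggaggagggcggggagaagccccgcccgct
Genes with the run did not share a direction. At day 6, Eef1a1, Eif2ak4, Eif2b5 and Eif3l lay above both day 4 libraries and Eif4g1 lay below both. Eif3f and both Eif2s3 genes lay between the day 4 libraries.

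The balance between paralogues was compared as a log2 ratio for 8 pairs. No ratio could pass, since the exact two-sided permutation test of 2 libraries against 2 cannot go below p = 0.333, and its adjusted value over the 8 pairs was 0.667 at the smallest. The ratio of Eif5a2 to Eif5a was higher at day 6 without overlap by 1.01 log2 units, as were those of Eif2s3y to Eif2s3x by 0.81 and of Eif4g3 to Eif4g1 by 0.17. The last of these was -0.095 under quantile normalization and 1.29 with naming by transcript ID only. In day 4 replicate 2 Eif2s3y was at 0, so its ratio there was set by the pseudocount; the difference of that pair was 2.35 with a pseudocount of 0.1 and 0.42 without day 4 replicate 2. The ratio of Eef1a2 to Eef1a1 was lower by 3.41, a value set by the level of Eef1a1, since Eef1a2 was near 0. The ratios of Eif4a2 to Eif4a1, Eif4e2 to Eif4e, Eif1b to Eif1 and Eif4ebp2 to Eif4ebp1 overlapped between the days.

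For 13 members at least 2 transcripts averaged 1 FPKM or more, and the files divide the gene's level among them by the estimate of the authors' quantifier. The same transcript led in both day 6 libraries for 12 of the 13, and in both day 4 libraries for 7. The share that changed transcript between libraries had a median of 2.52% at day 6 and 26.1% at day 4. Eif4g2 shows that such a change can occur under a level that does not move: NM_013507 held 92.9 and 93.7% of the gene at day 6, against 92.8 and 9.95% at day 4. Eif3k moved likewise, with NM_028659 at 99.7 and 100% at day 6, against 100 and 16.3% at day 4. In Eef1d, NM_023240 had 84.7 and 80.0 FPKM at day 6, against 147 and 0.00128 FPKM at day 4, although the gene's sum was close in the day 4 libraries. The division separated the days within Eif4g3: NM_001256195 held 50.8 and 51.0% at day 6, against 14.7 and 8.43% at day 4, and NM_001256198 held 29.8 and 34.7% at day 6, against 56.5 and 82.5% at day 4. The summed level of Eif4g3 was within 32.7 to 35.3 FPKM in all 4 libraries. Within Eif4a2, NM_013506 held 67.01 and 66.4% at day 6, against 0.0048 and 0.107% at day 4, where the whole gene was at 0.191 FPKM in replicate 2. The leading transcript of Eif5a, NM_181582, held 89.6 and 91.8% at day 6, against 98.2 and 97.2% at day 4.

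**Figure D4:**
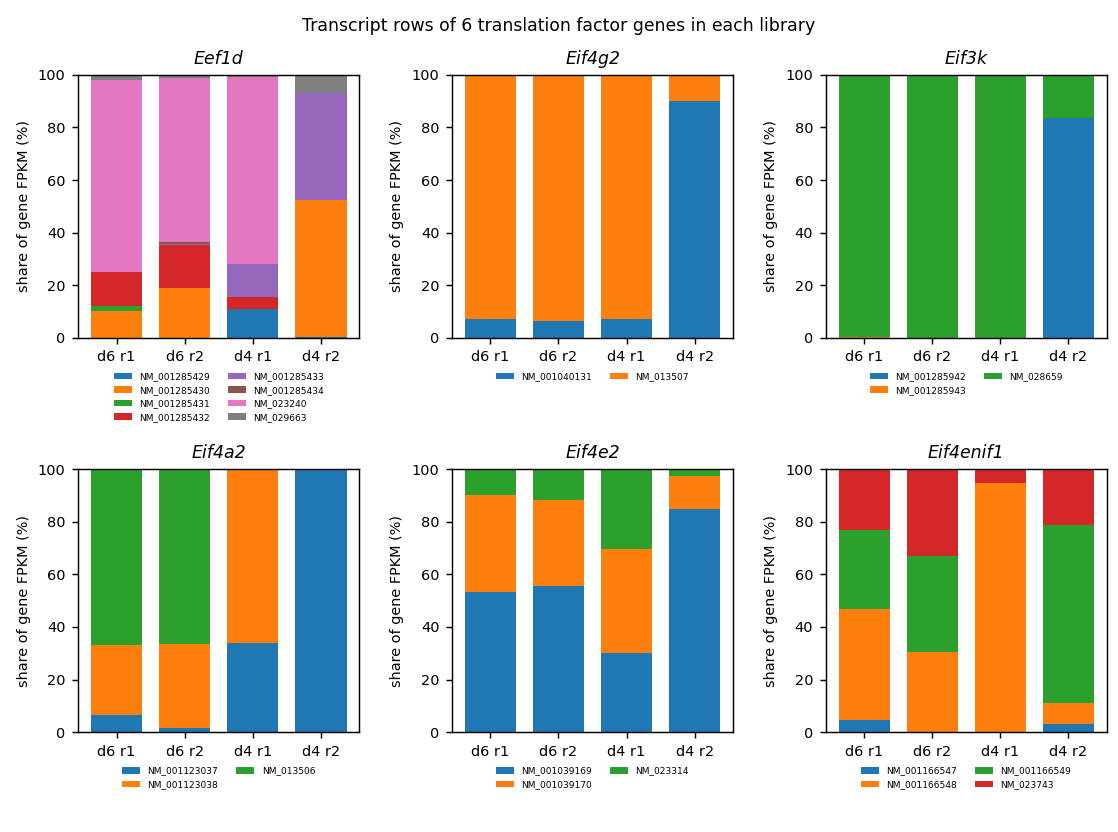
Share of each transcript in the summed FPKM of the gene, in percent. Bars are the day 6 libraries (d6 r1, d6 r2) and the day 4 libraries (d4 r1, d4 r2). The 6 genes shown are those of the 13 whose leading transcript differed between the day 4 libraries. Among them, the leading transcript also differed between the day 6 libraries for Eif4enif1 only. The share that changed transcript between the day 6 libraries was 16.4% for Eif4enif1 and 13.5% for Eef1d. For the others shown it was at most 5.35%.

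The factors that work beside these genes were counted in 7 lists of 52 symbols, of which 50 were tested. None passed. The days did not overlap for 14 that were higher and 8 that were lower at day 6 (41.6 and 11.5% of all genes, which are also the shares to read the counts of each list against), and the median log2 difference was 0.30, under the 0.51 of all genes. Among 12 genes of mTOR signalling to the cap complex, 7 were higher and 1 was lower (41.6 and 11.5% of all genes). The lower one was Rheb, the GTPase that activates mTOR, with 17.9 and 15.4 FPKM at day 6, against 21.2 and 23.6 FPKM at day 4. The 7 higher ones were Mtor, Mlst8, Tsc1, Tsc2, Mknk1, Mknk2 and Pdcd4. Mtor itself had 10.5 and 10.8 FPKM at day 6, against 6.07 and 5.15 FPKM at day 4. Tsc2, which restrains mTOR, had 23.6 and 23.4 FPKM at day 6, against 6.89 and 14.7 FPKM at day 4. The eIF4E kinase gene Mknk2 had 63.0 and 54.2 FPKM at day 6, against 15.7 and 44.4 FPKM at day 4. Among 8 enzymes that make hypusine on eIF5A and diphthamide on eEF2, 4 were higher and 2 were lower, and Dhps, the first hypusine enzyme, had 31.5 and 28.8 FPKM at day 6, against 10.2 and 18.9 FPKM at day 4. Of 6 phosphatase and sensor partners of eIF2, 2 were higher and 1 was lower; Ppp1r15a, the stress-induced phosphatase subunit GADD34, had 26.1 and 25.02 FPKM at day 6, against 9.43 and 15.9 FPKM at day 4. Among 7 mitochondrial initiation and elongation factors 1 was higher, Tufm, with 63.9 and 59.8 FPKM at day 6, against 27.6 and 34.6 FPKM at day 4. No gene was higher among 6 termination and recycling factors, 5 poly(A) binding proteins and partners and 6 scanning helicases and helpers, while 2, 1 and 1 were lower. The release factor Gspt1 had 17.998 and 23.2 FPKM at day 6, against 50.4 and 83.8 FPKM at day 4, and the poly(A) binding protein Pabpc4 had 70.5 and 79.5 FPKM at day 6, against 208 and 174 FPKM at day 4. Without day 4 replicate 2, limma called 13 of the 50 higher and 14 lower at day 6 (36.2 and 15.7% of all genes), Gspt1 (-1.26, adjusted p = 0.00753), Pabpc4 (-1.46, adjusted p = 0.00339), Tsc2 (1.63, adjusted p = 0.00299) and Mknk2 (1.83, adjusted p = 0.00251) among them. With libraries scaled to the same median the 50 split into 3 higher and 15 lower (20.2 and 26.4% of all genes).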

How the data were processed

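Poly(A) RNA from 4 libraries was sequenced with a stranded TruSeq kit, per the labels' protocols. The submitters' processing notes name CASAVA, TopHat2 (version 2.0.11) and build mm10. On the quantifier, its annotation, strand and reads with several placements no statement is given in the sources used here. Per the file headers, each library is 1 table of transcript rows with FPKM as the authors deposited them. A coverage signal deposited by the authors beside FPKM was used only to describe depth. The deposited FPKM bounds were not used as errors, since 47 of 460 member values lay above their own upper bound. The tables hold no counts, so no count test was run.

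Symbols came from RefSeq transcript IDs (30290 rows, assembly GRCm38.p6), GENCODE M21 RefSeq links (160 rows) and GENCODE M21 transcripts (3585 rows); 24 unnamed rows took the symbol of named rows of the identical locus, and 1597 rows stayed unnamed. FPKM were summed per symbol. The days were tested on log2(FPKM + 1) with limma (version 3.58.1; R 4.3.3) over the 11708 genes whose mean FPKM reached 1 (day 6 minus day 4, empirical Bayes with trend, two-sided, Benjamini-Hochberg over all genes, threshold 0.05, no replicate block). Differences on this scale understate the change of low genes. This fit was first tested on simulated data with the same spread in every library. In the real libraries the median size of the gap over all genes was 1.07 at day 4 and 0.19 at day 6. That test therefore does not show how the fit behaves on these data. No label ties the replicate numbers to a shared culture, and the deviations of same-numbered libraries did not go together.

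The members, role groups, partner lists, paralogue pairs and markers were chosen with earlier results of these data known. Genes are named with values by rule: the 10 highest by mean FPKM, the 10 largest differences without overlap, the paralogue pairs, the kinases, the eIF4E family and its binding proteins, genes at 0 in a day, and role-group extremes; the other members and the partner genes named were chosen after their values were seen. Alternatives were a pseudocount of 0.1, no filter, only the highest row of a gene, 3 scalings, leaving out each library, the replicate block and, added after seeing the data, naming by transcript ID only.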

Additional observations from a re-analysis of the deposited data

How the results depend on the processing

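With a pseudocount of 0.1, no filter, only the highest row of a gene or naming by transcript ID only, 0 genes were called, as with the deposited values, and the counts of translation factors without overlap stayed within 1.5 times (21 to 23 higher, 9 lower). Scaling moved them: 10 higher and 18 lower with equal medians, 14 higher under quantile normalization, and 11 higher and 19 lower after the GC correction. For the partner genes, 3 were higher and 15 lower with equal medians (20.2 and 26.4% of all genes). Quantile normalization gave 8 higher and 11 lower (23 and 24.9% of all genes). The GC correction gave 10 higher and 20 lower (26.2 and 29% of all genes). The cause of these moves was not tested. Leaving out 1 library gave 0 to 7836 genes called, 0 to 48 translation factors called, 22 to 43 of them higher and 10 to 28 lower without overlap, and 14 to 32 partner genes higher and 8 to 25 lower; the highest values came without a day 4 library (7836 genes and 48 members called without replicate 1, 6078 and 25 without replicate 2), and leaving out a day 6 library called 0. The replicate block called 73 genes, 0 of them translation factors; the correlation of the deviations of same-numbered libraries was -0.092, and the numbers are not taken as pairs. Naming by transcript ID only moved Eif4g1 to -1.31 and Eif4g3 over Eif4g1 to 1.29. Of 32 tested members named by rule, 13 changed sign under at least 1 setting. Over the libraries left out, the log2 difference ranged from -2.39 to 0.66 for Eif3a, -0.81 to 0.61 for Eef2, -0.70 to 0.083 for Eif1, -0.39 to 2.58 for Eif2ak1, -0.57 to 2.21 for Eif2s3x, -0.15 to 3.40 for Eif2s3y, -0.37 to 3.55 for Eif4a1, -0.83 to 4.63 for Eif4a2, -0.96 to 3.02 for Eif4e, -2.72 to 1.15 for Eif4ebp1 and -0.065 to 0.042 for Eif4g3. The log2 ratio ranged from -0.45 to 1.27 for Eif4e2 over Eif4e, -0.60 to 0.43 for Eif1b over Eif1, -0.46 to 1.08 for Eif4a2 over Eif4a1 and -0.51 to 3.25 for Eif4ebp2 over Eif4ebp1. Signs also turned for Eif4ebp2 (-0.045, equal medians), Eif2ak4 (-0.0016, quantile normalization; -0.082, GC correction), Eif4a2 over Eif4a1 (-0.93, highest row; -0.21, quantile normalization), Eif4g3 over Eif4g1 (-0.90, highest row; -0.095, quantile normalization), Eif1b over Eif1 (0.041, GC correction) and Eef1d (2.77, highest row).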
